A study of Mus musculus with 8 samples.

Results

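Siglecs are cell-surface lectins that bind sialic acid, the sugar that caps most glycans of mammalian cells. Siglec1, Siglece, Siglecg, Siglech, Cd22 and Cd33 were followed here in cells of the mouse brain after a stroke, and each probe named for one of these 6 genes in the array files was taken. The rule gave 10 probes of 55681 gene probes on the array, of which 9 were bright enough to be tested. Siglech has 3 of these probes, Siglec1 and Siglecg have 2 each, and Siglece, Cd22 and Cd33 have 1 each.

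The cells came from bone marrow chimeric C57BL/6 mice in which the brain was made ischemic for 30 min by occluding the middle cerebral artery (MCAo) and then reperfused for 7 days. Resident microglia were sorted as GFP+ cells and invading macrophages as RFP+ cells, and both kinds came from the same 4 animals, called A, B, C and D, so that replicate 1 of either kind is animal A and so on. All 8 samples therefore share the ischemia, the reperfusion and the transplanted marrow, and no uninjured brain or blood monocyte was analysed here. The labels rest the words resident and invading on these sorting markers, and they name neither a promoter for GFP or RFP nor the age or sex of the mice. RNA was amplified by a global PCR before it was labelled with Cy3 and hybridised to one-colour Agilent arrays.

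Most Siglecs carry inhibitory motifs in their cytoplasmic tail, which recruit the phosphatases SHP-1 (Ptpn6) and SHP-2 (Ptpn11) when the receptor meets sialylated glycans on the same or a neighbouring cell. Siglech has no such motif and signals through the adaptor DAP12 (Tyrobp), and Siglec1, or sialoadhesin, has a long extracellular part that holds macrophages to sialylated partners. In the brain, Siglech is used as a marker of microglia, Siglece is an inhibitory receptor of microglia and other myeloid cells, and Cd22 and Siglecg are best known as inhibitory receptors of B cells.

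Siglech was the member with the largest difference, and its 3 probes, which lie on chromosome 7 (build mm9, plus strand), did not agree in size. Bases 16 to 45 of each 60-base probe are shown to identify the 3 probes. Capitals mark bases that lie in a stretch of 15 bases also found, on either strand, in a probe of another gene.
Siglech A_55_P2141008: tgtgtgaacagtCTTCCCTGGTGGATTcct
Siglech A_55_P2165790: ccttgcagagacatcctccaaagttgaaga
Siglech A_55_P2141013: GCTACACAGAGAAACTCTGTCTCAAAGAAA
The first probe, A_55_P2141008, lies at chr7:63028608-63028667 and was designed on the transcript ENSMUST00000171077. The second, A_55_P2165790, at chr7:63033826-63033885, and the third, A_55_P2141013, at chr7:63034088-63034147, were designed on NM_178706. The second probe shared no such stretch with a probe of another gene, as did 51.3% of all probes, and the first shared 1 stretch with 1 probe. The third shared stretches with 25 probes of 25 other genes, and 57 of its 60 bases lay in them. Only 0.763% of all probes shared stretches with as many. The stretch gctacacagagaaac alone, at its bases 16 to 30, was found in 13 other probes.

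Levels are given as log2 of the processed signal minus the 75th percentile of all gene probes on that array, so that 0 is the level of that percentile, and differences are macrophages minus microglia on the same log2 scale. Levels of different probes are not comparable with each other. A probe counts as well above background on an array where the scanner software called as many or more of its spots so than not, and the lowest such signal on an array, its floor, ran from -5.00 to -3.42. On single arrays this held for 45.7% to 57.1% of the probes. Saturation was seen in none of them. Each probe was compared with limma in a two-sided test, the p-values were adjusted after Benjamini and Hochberg over the 29359 probes tested, and a probe is called where the adjusted p was under 0.05.

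The labels of the groups were checked against markers. Of 10 microglia markers, 7 were lower in the macrophages and none was higher, and of 8 monocyte markers 5 were higher and none was lower (5 and 3 when blocked on the animal). Sall1, a transcription factor of microglia, fell from 4.19 ± 0.25 to -4.32 ± 1.13 (SD, n = 4 each), and 1 of 4 macrophage arrays measured it well above background. S100a4, the brightest monocyte marker, rose by 1.94 (adjusted p = 0.0264, limma, and 0.0748 when blocked on the animal). None of 7 tested neutrophil markers was called (limma, 2 at an unadjusted p under 0.05), but Mmp8 was when blocked on the animal (adjusted p = 0.024) or without macrophage replicate 2 (0.0484). The log2 sum of these markers was 4.62 to 5.54 in microglia and 6.39 to 7.14 in macrophages, without overlap, and its part in the Siglec levels was not tested. One array stood apart. Across probes, macrophage replicate 2 (animal B) correlated with the other macrophage arrays at 0.840 to 0.872, against up to 0.951 among those, and values of 0.927 to 0.956 were found among the microglia arrays. Probes are not independent replicates. Of 9 tested endothelial markers 4 were higher in macrophages (2 when blocked on the animal, 7 without that array), and the log2 of their summed signal was 2.02 to 2.44 on the microglia arrays, 3.57 to 5.97 on macrophage replicates 1, 3 and 4, and 9.60 on macrophage replicate 2. In such sorted bulk samples, fewer cells of a type and less RNA per cell cannot be told apart.

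Of the 9 tested Siglec probes, 5 were called and all 5 were lower in macrophages. They belong to Siglech (3 probes), Siglece and Cd33. Over all tested probes 6.45% were called, 4.11% as lower and 2.34% as higher in macrophages. The share of called probes that were higher was 36.3%, with 25.4% when the percentile was taken over probes detected on all arrays and 53.2% when arrays were centred on their median. The levels of the groups did not overlap for the same 5 probes, against 16.7% of all probes (9.39% lower). With the animal as a block, the first and the second Siglech probe remained called, against 3.7% of all probes (2.5% lower), while the third (adjusted p = 0.0614), Siglece (0.0595) and Cd33 (0.0559) missed the threshold. Without macrophage replicate 2, 8 of the 9 probes were called, 6 lower (among them Siglecg, then under background on all 3 macrophage arrays) and 2 higher, against 14% of all probes (6.83% lower). The plot of levels by array shows each of the 10 probes.

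**Figure D1:**
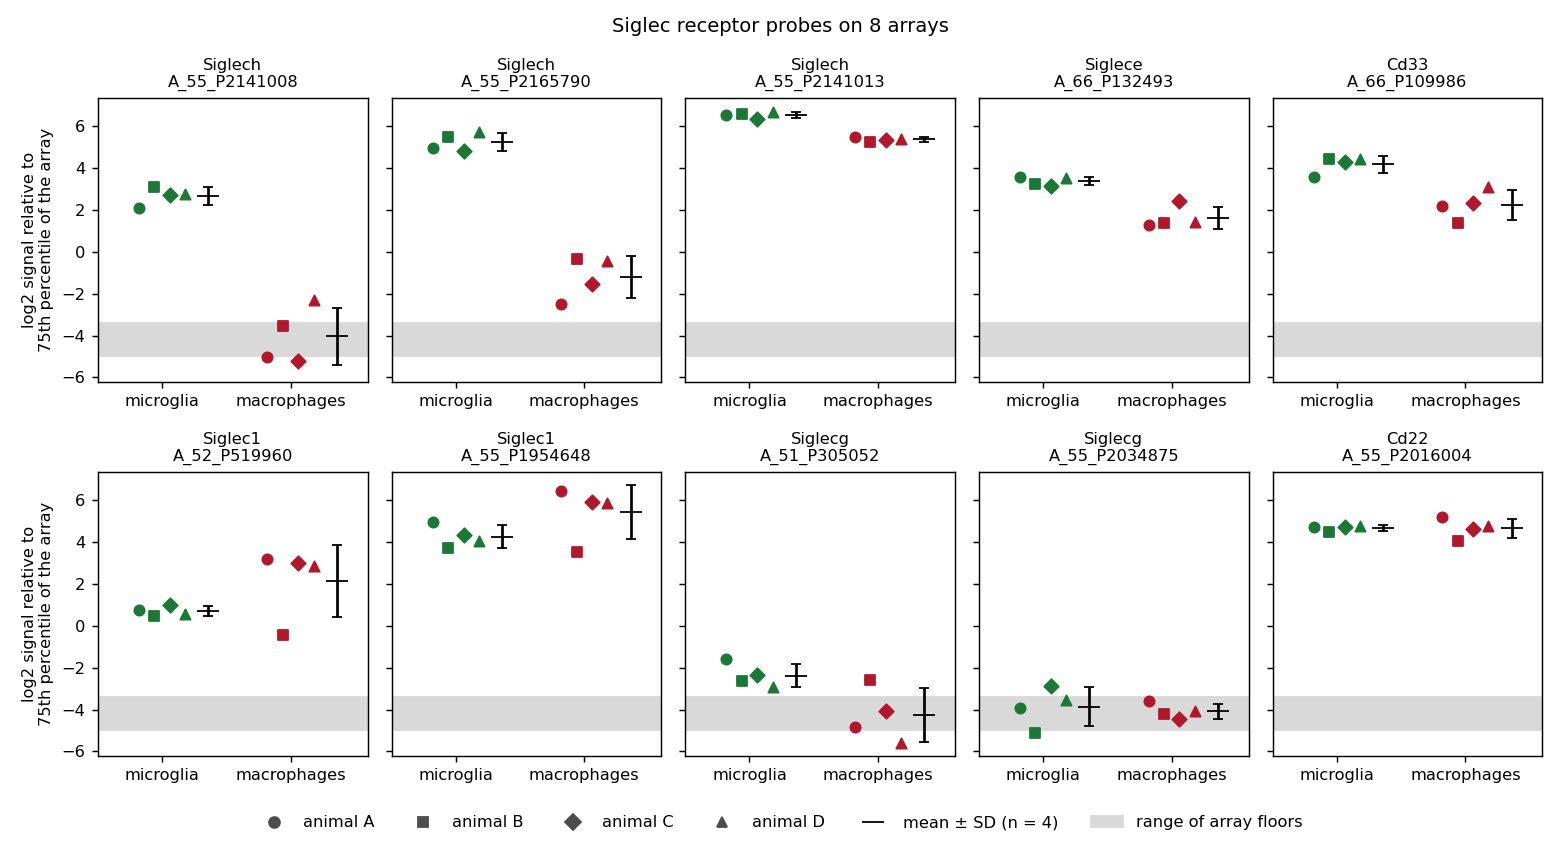
Levels of the 10 Siglec receptor probes on 8 arrays (vertical axis, log2 signal relative to the array's 75th percentile; symbols are animals A to D, bars the mean and SD of 4 arrays, the grey band the range of array floors). The Siglech, Siglece and Cd33 probes in the upper row do not overlap between microglia and macrophages, and in both Siglec1 panels macrophage replicate 2 (animal B) lies below all 4 microglia arrays.

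The first Siglech probe had levels of 2.08, 3.1, 2.69 and 2.73 in microglia replicates 1 to 4 and of -5.03, -3.57, -5.23 and -2.31 in macrophage replicates 1 to 4. Every microglia array was high, and 2 of 4 macrophage arrays measured the probe well above background. The microglia arrays alone took it past the filter for testing, so its p-values rest partly on macrophage signals under background. The difference was -6.69 (SE 0.63, 95% interval -8.11 to -5.26, adjusted p = 0.000526, limma), lower in 4 of 4 animals. With the signals of 2 macrophage arrays raised to their floor, the macrophages were 60.5-fold lower. With normexp background correction and quantile normalization together the difference was -4.22 (adjusted p = 1.67e-05, limma).

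The second Siglech probe gave 4.96, 5.49, 4.79 and 5.71 in microglia and -2.50, -0.35, -1.55 and -0.46 in macrophages. All 8 arrays measured it well above background, and the gap between the lowest microglia and the highest macrophage array was 5.14. The macrophages were 87.7-fold lower (difference -6.45, SE 0.50, adjusted p = 0.000187, limma), and blocking on the animal gave an adjusted p of 0.00272.

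The third Siglech probe gave 6.54, 6.59, 6.31 and 6.64 in microglia and 5.47, 5.22, 5.34 and 5.39 in macrophages. Its SD in macrophages, 0.10, was the smallest of the tested Siglec probes, and its groups did not overlap either, but the difference was only 2.24-fold (-1.16, SE 0.20, adjusted p = 0.0124, limma). With this probe both groups lay above the 75th percentile of their arrays, whereas with the other two all 4 macrophage arrays lay below it.

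Whether probes of one gene differed was tested on the log2 difference between 2 probes within each array, which no scaling of the array can change, over all 13020 pairs of tested probes of 5676 genes. Of these pairs 0.714% were called. The fall of the first Siglech probe exceeded that of the third by 5.52 (-5.52, SE 0.66, adjusted p = 0.0143, limma), and that of the second exceeded that of the third by 5.29 (SE 0.52, adjusted p = 0.00545). These gaps were larger than those of 99.977% and 99.96% of all pairs, the median pair differing by 0.337. The first and the second probe differed from each other by -0.23 (95% interval -1.21 to 0.75, adjusted p = 0.91). With normexp background correction and quantile normalization, the gap of the first to the third was -2.81 (adjusted p = 0.000986) and that between the first and the second turned to 1.53 (adjusted p = 0.0237), while the second and the third still differed by 4.34.

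An exact two-sided permutation of the 8 arrays gave p = 0.0286 for either gap against the third probe, the smallest that 70 arrangements allow, and 0.0571 after adjustment over the 4 pairs of member probes. These arrangements ignored the pairing by animal, so that p does not reflect the paired design. With the animal as a block both gaps kept their size and missed the threshold (adjusted p = 0.0874 and 0.0549, limma), as did all pairs but 7. On the slide with 3 arrays, 1 of them of macrophages, the gaps were -6.52 and 6.63, and on the slide with 5 arrays -5.26 and 4.88, each with an adjusted p over 0.05.

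**Figure D2:**
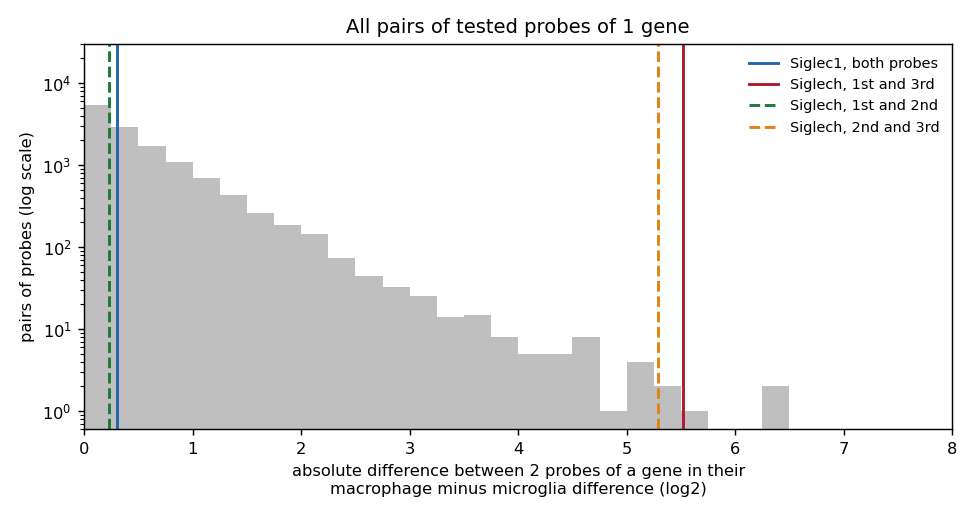
Distribution of the absolute difference between 2 probes of a gene in their macrophage minus microglia difference (horizontal axis, log2) over 13020 pairs (vertical axis, number of pairs on a log scale). Lines mark the 4 pairs of Siglec probes. The pairs of the third Siglech probe with the first (5.52) and the second (5.29) lie among the 28 pairs above 4, and the other 2 pairs lie at 0.23 and 0.30. The first probe lay under the floor on 2 macrophage arrays, so the place of its pairs is not exact.

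The probes that share stretches with the third Siglech probe were looked up in the same fit. Of the 25 probes that share stretches with the third Siglech probe, 23 were tested, and all 23 were well above background on all 8 arrays, as 72.5% of all tested probes were. None of the 23 was called (limma, 0 also at an unadjusted p under 0.05), and their differences ran from -0.45 to 0.53 with a median of -0.05. Over all 29359 tested probes 6.45% were called, a share that gives few calls among 23, and 6899 had an unadjusted p under 0.05. The shared letters resemble the 3′ part of B1, a short repeat found many times in mouse transcripts. Whether RNA other than Siglech bound to this probe was not tested.

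Siglece, a receptor with inhibitory motifs, was measured by A_66_P132493 at chr7:50906669-50906728 (mm9, minus strand, designed on NM_031181), of which bases 16 to 45 are shown to identify it.
Siglece A_66_P132493: gccctgtccacacaactgctaTTGTGCCCT
Its levels were 3.55, 3.25, 3.15 and 3.52 in microglia and 1.28, 1.39, 2.40 and 1.42 in macrophages. The groups did not overlap, and macrophage replicate 3 stood above the other 3 macrophage arrays. Siglece was 3.36-fold lower in macrophages (-1.75, SE 0.30, adjusted p = 0.0114, limma), lower in 4 of 4 animals. It was -2.12 on the slide with 3 arrays and -1.60 on that with 5, where few arrays were left and the adjusted p was 0.237 and 0.274.

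Cd33, a myeloid Siglec whose human counterpart is linked to the risk of Alzheimer's disease, was measured by A_66_P109986 at chr7:50783849-50783908 (mm9, minus strand, designed on NM_001111058).
Cd33 A_66_P109986: gtacatgtatgaaggctagAGGTCAAAGTT
Its levels were 3.58, 4.41, 4.27 and 4.44 in microglia and 2.16, 1.38, 2.30 and 3.08 in macrophages. The gap between the groups was 0.50, narrower than for Siglece. Cd33 was 3.85-fold lower in macrophages (-1.94, SE 0.39, adjusted p = 0.0211, limma), lower in 4 of 4 animals. The call was lost in 5 of the 8 fits that left out 1 array, with an adjusted p of up to 0.0716 and a difference between -2.23 and -1.66.

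Siglec1 was read by 2 probes on chromosome 2 (mm9, minus strand, both designed on NM_011426), A_52_P519960 at chr2:130909693-130909752 and A_55_P1954648 at chr2:130895093-130895152. They are shown because their letters share little with other probes.
Siglec1 A_52_P519960: ggggatccagtcacactcacctgcagagtg
Siglec1 A_55_P1954648: aagtgtTGCCTTTGATTATGAAgctcaggt
The former gave 0.74, 0.46, 1.01 and 0.55 in microglia and 3.19, -0.43, 2.99 and 2.85 in macrophages. The latter gave 4.95, 3.70, 4.35 and 4.03 in microglia and 6.42, 3.51, 5.89 and 5.86 in macrophages. With either probe macrophage replicates 1, 3 and 4 lay above every microglia array and macrophage replicate 2 lay below every microglia array, so that the groups overlapped and 3 of 4 animals were higher in macrophages.

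The differences of Siglec1 were 1.46 (95% interval -0.25 to 3.17, adjusted p = 0.278, limma) and 1.16 (-0.24 to 2.56, adjusted p = 0.294), and neither was called. Without macrophage replicate 2 they were 2.32 (adjusted p = 0.00103, limma) and 1.80 (adjusted p = 0.0147), and both were called. Macrophage replicate 2 is also the array with the highest sum of endothelial markers (9.60, against 3.57 to 5.97 on the other macrophage arrays) and the lowest sum of border macrophage markers (3.85, against 5.66 to 6.28). The part of these in the Siglec1 levels was not tested. With slide and animal together in the fit the first-named probe was called (2.25, adjusted p = 0.0377, limma). Only animal B has its 2 arrays on different slides, so that estimate rests on animals A, C and D. It leaves out the difference of animal B, and with it macrophage replicate 2, and is no separate support. The 2 probes differed from each other by 0.30 (95% interval -0.43 to 1.03, adjusted p = 0.817), less than the median pair of probes of a gene.

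**Figure D3:**
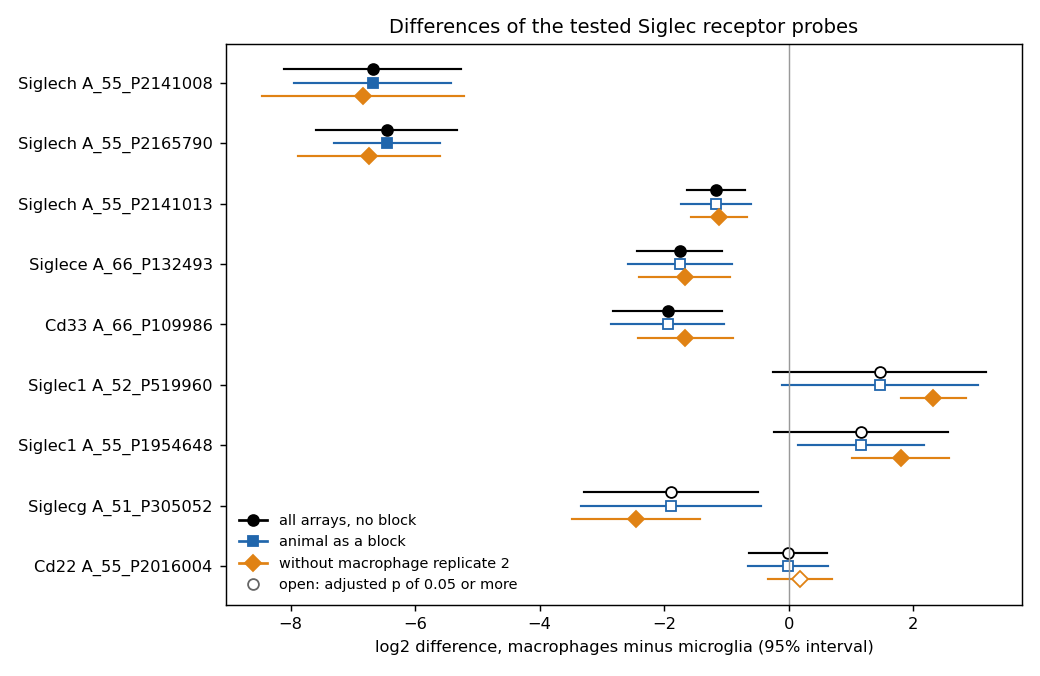
Differences between macrophages and microglia (horizontal axis, log2, with 95% intervals) of the 9 tested Siglec receptor probes in 3 fits: all arrays, with the animal as a block, and without macrophage replicate 2. Filled symbols have an adjusted p under 0.05. All 3 fits call the first and the second Siglech probe, and both Siglec1 probes are called only in the fit without macrophage replicate 2. In that fit the Siglecg point rests on macrophage arrays under background.

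Siglecg, known from B cells and as a receptor for the glycoprotein CD24, was read by 2 probes designed on NM_172900. A_51_P305052 spans 5144 bases of the genome with its 60 bases (chr7:50668051-50673194, mm9, plus strand), so that it crosses a splice junction, and A_55_P2034875 lies at chr7:50667115-50667174.
Siglecg A_51_P305052: catcaatgtggtccccaagaccaggtccct
A_51_P305052 gave -1.60, -2.64, -2.34 and -2.92 in microglia, where 4 of 4 arrays were well above background, and -4.83, -2.59, -4.07 and -5.58 in macrophages, where only replicate 2 was. Macrophage replicate 2 lay among the microglia arrays and the others lay below them. The difference was -1.89 (SE 0.61, adjusted p = 0.108, limma) and was not called. With 3 arrays raised to their floor the macrophages were 2.02-fold lower. Without macrophage replicate 2 no macrophage array was left well above background, so that only a bound can be given, at least 2.43-fold lower (adjusted p of the fit = 0.0130, limma). With normexp background correction and quantile normalization together, and all arrays, the difference was -0.40 (adjusted p = 0.211, limma). A_55_P2034875 was well above background on 1 microglia array and no macrophage array and was not tested. Its levels, -3.92, -5.11, -2.88 and -3.56 in microglia and -3.59, -4.22, -4.46 and -4.05 in macrophages, lay near the floors and give no order.

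Cd22, an inhibitory receptor of B cells that binds glycans capped by the enzyme St6gal1, did not separate the groups. Its probe A_55_P2016004 lies at chr7:31651249-31651308 (mm9, minus strand, designed on NM_001043317) and is shown because its letters, like those of the third Siglech probe, recur in other probes.
Cd22 A_55_P2016004: AACCAACCAACCAAACAAAAAACAACctgt
It gave 4.70, 4.48, 4.71 and 4.76 in microglia and 5.17, 4.06, 4.63 and 4.74 in macrophages. The macrophage arrays lay on both sides of the microglia arrays, and the difference was -0.01 with a 95% interval of -0.64 to 0.61 (adjusted p = 0.984, limma). The sign of so small a difference turned under several settings, among them median centring (0.19). The probe shared stretches with 15 probes of other genes, and 1.2% of all probes shared with as many or more. Of these, 14 were tested, 12 were well above background on all 8 arrays and 1 was called, against 6.45% of all tested probes. Of 8 B cell markers, 3 were tested and none was called (limma, 0 at an unadjusted p under 0.05), and Ms4a1 was below background on all 8 arrays. Cd79b, the brightest, was at 0.41 ± 0.90 and -0.62 ± 0.53 (SD, n = 4 each). The log2 sum of B cell markers was 0.41 to 1.87 in microglia and -0.17 to 0.67 in macrophages, and its part in the Cd22 and Siglecg levels was not tested.

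Siglech is also known from plasmacytoid dendritic cells. Of 7 markers of these cells 3 were tested and none was called (limma, 1 at an unadjusted p under 0.05), and Klk1 and Ly6d were below background on all 8 arrays. Tcf4, the brightest, was at 4.06 in microglia and 4.21 in macrophages, and the log2 sum was 3.86 to 4.23 in microglia and 3.71 to 4.84 in macrophages. The part of these cells in the Siglech levels was not tested. The summed level of 4 astrocyte markers was lower in macrophages, with log2 sums of 3.61 to 3.83 in microglia and -0.13 to 1.08 in macrophages. The median difference of the 3 tested was only -0.13, so the list as a whole did not move with Siglech. Of 3 tested, Slc1a3 fell by 6.60 (adjusted p = 9.16e-05, limma) and Gfap rose by 2.74 (adjusted p = 0.0135), and their part in the Siglech levels was not tested.

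The other Siglec genes of the mouse were few. The gene named Siglec5 in the array files, which RefSeq now calls Siglecf and which is known from eosinophils and alveolar macrophages, gave 1.10, 1.78, 2.0 and 2.24 in microglia and -3.83, -1.33, -0.62 and -2.33 in macrophages with its brighter probe. All microglia arrays lay above all macrophage arrays. It was lower in macrophages by 3.81 (SE 0.64, adjusted p = 0.0107, limma, and 0.0216 when blocked on the animal), or 13.1-fold with 1 array raised to its floor. Of 4 eosinophil markers 2 were tested and none was called (limma, 0 at an unadjusted p under 0.05), and Il5ra, the brightest, was at -1.85 and -1.95. Mag, the Siglec of myelin, and Siglec15 were not tested. Mag was well above background on 3 microglia arrays and no macrophage array.

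Siglecf, Siglecg, Cd33 and Siglece are neighbours on chromosome 7, their probes lying between positions 50611746 and 50906728 (mm9), while Siglech and Cd22 lie elsewhere on that chromosome. Promoters were compared over 250 bases before the start in RefSeq's GRCm38.p6 table, which held 7 entries for these 6 genes. It held none for Siglec1, so no promoter of Siglec1 was searched. Of the pairs compared, Cd33 and Siglecf shared the longest run of letters, 16 bases. It was picked for its length and counted on 1 strand in the same promoters. The 2 of 32851 promoters that held it are those it came from, so the count is no test. The longest runs of Cd33 with Siglece and with Siglech, which were also lower in macrophages, were 8 bases. Any part of the run in the levels was not tested. It is shown here in capitals.
Siglecf promoter: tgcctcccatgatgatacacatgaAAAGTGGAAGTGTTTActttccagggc
Cd33 promoter: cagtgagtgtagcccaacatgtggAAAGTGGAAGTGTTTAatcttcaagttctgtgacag
The former lies at chr7:43351290-43351340 (plus strand) and the latter at chr7:43533293-43533352 (minus strand), both in GRCm38.p6. The next longest run between 2 of these promoters was 10 bases (Siglecg and Siglece), found in 86 promoters. The letters GGAAGTG, taken from the run after it was seen and searched on both strands, occurred in the promoters of Cd33, Siglecf and Siglech and in 8.55% of all promoters. GAGGAAGT, letters bound by PU.1, which overlap GGAAGTG in GGAAGT, occurred in none of the 7 entries and in 2.44% of all promoters. GAAA followed after any 2 bases by GAAA is part of the interferon response element. It occurred on either strand in none of the 7 entries, which leave out Siglec1, and in 2.98% of all promoters. A match in letters is not a bound site.

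Among the enzymes that make and attach sialic acid, few differed. Of 26 genes of this list 18 were tested, 1 was higher, 1 was lower and 16 were not called, with a median difference of 0.04, against 0.00 over all tested probes, of which 2.34% were called higher and 4.11% lower. St3gal5, which makes the ganglioside GM3, fell from 4.80 ± 0.24 to 2.74 ± 0.37 (SD, n = 4 each), 4.19-fold (adjusted p = 0.00277, limma), and St3gal1, which sialylates O-glycans, rose by 1.73 (adjusted p = 0.0427, and 0.137 when blocked on the animal). Without macrophage replicate 2, 2 genes were higher (Nans and St3gal1) and 4 were lower (St3gal2, St3gal5, St3gal6 and St8sia6). In that fit 14% of all tested probes were called, 6.83% as lower, against 6.45% called over all arrays. St6gal1, whose product Cd22 binds, was at 3.85 ± 0.16 and 3.95 ± 0.23 (SD, n = 4 each), a difference of 0.10 (SE 0.22, adjusted p = 0.818). Of 8 genes that remove or modify sialic acid 6 were tested and none was called (limma, 0 at an unadjusted p under 0.05). Neu1, the lysosomal sialidase, differed by 0.06 (SE 0.39).

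All 14 adaptors, kinases and phosphatases of the list were tested and none was called (limma, 1, Lyn, at an unadjusted p under 0.05), with a median difference of -0.06. Tyrobp, the adaptor of Siglech, was at 7.94 ± 0.20 in microglia and 7.83 ± 0.75 in macrophages (SD, n = 4 each), a difference of -0.11 (SE 0.37, adjusted p = 0.887). Ptpn6, the phosphatase recruited by Siglece, was at 5.58 ± 0.32 and 5.58 ± 0.68. With 4 arrays a group, an SE of 0.37 leaves differences of either sign possible. Without macrophage replicate 2 the median of the list was 0.22.

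Glycoproteins described as Siglec ligands changed in both directions. Of 6 tested, 3 were higher and 1 was lower in macrophages, with a median of 1.52. Over all tested probes 2.34% were called higher and 4.11% lower. Spn (CD43), a ligand of Siglec1, rose from -0.41 ± 0.59 to 1.93 ± 0.63 (SD, n = 4 each), 5.08-fold (adjusted p = 0.0118, limma), and Cd24a, the ligand of Siglecg, rose 5.27-fold (adjusted p = 0.0443). Both kept the call with the animal as a block. Selplg (PSGL-1), a sialylated ligand of selectins, fell 5.51-fold (adjusted p = 0.00446). Podxl, a sialomucin, was not well above background on any microglia array and at least 30.8-fold higher in macrophages (adjusted p = 0.0428, and 0.0903 when blocked on the animal, limma). Podxl passed the filter for testing only through its macrophage arrays, so its p-values rest on microglia signals under background. Its levels in macrophages were -0.29, 5.46, 2.17 and -2.82, highest in replicate 2, as was the sum of the endothelial markers, and without that array the bound was 11.3-fold (adjusted p = 0.0227, limma). Their part in it was not tested.

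Type I interferon is known to raise Siglec1, and a list of 17 genes it induces was read beside it. All were tested, 3 were higher, none was lower and 14 were not called, with a median of 0.89. Over all tested probes 2.34% were called higher. Irf7 rose by 1.61 (adjusted p = 0.0467, limma) and Ifi44 by 2.10 (adjusted p = 0.0218). When blocked on the animal, 2 of the 3 kept the call, while Ifi44 had an adjusted p of 0.0813. Without macrophage replicate 2, 7 were higher, among them the 3 called over all arrays. In that fit 2095 of all 29359 tested probes were called higher, against 688 over all arrays. On macrophage replicate 2 Ifi44 was at 3.50, the highest of the macrophage arrays. Irf7 was at 4.30 there, the lowest of the macrophage arrays but above every microglia array, unlike Siglec1.

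**Figure D4:**
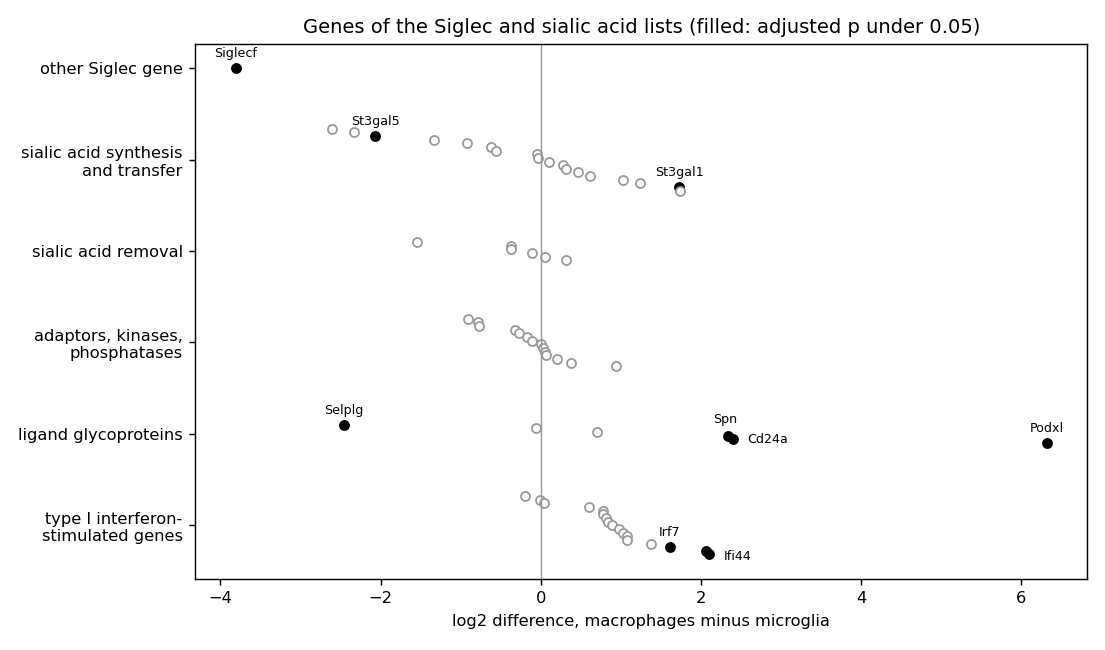
Macrophage minus microglia differences (horizontal axis, log2) of the tested genes of 6 lists around the Siglec receptors, 1 point per gene. Filled points have an adjusted p under 0.05 (limma), and those named in the text carry their symbol. St3gal5 (-2.07), Selplg (-2.46) and Siglecf (-3.81) were lower in macrophages, and no adaptor, kinase or phosphatase is filled. Podxl is drawn at its measured means, although all microglia arrays lay under background, so that its place is no exact difference.

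The genes most like each member over the 8 arrays were found by Pearson correlation among 16963 tested probes with a current symbol, which is a description only, since all 8 arrays and both groups enter. Siglec1 was closest to S1pr2 (r = 0.996), the scavenger receptor Msr1 (0.995) and Mcoln3 (0.993). Cd33 was closest to Rogdi (0.994), Tbc1d16 and Fgd2 (both 0.99), and Siglece was close to Mymk (0.976) and Tspan7 (0.974). Cd22 was closest to Ehd4 (0.979), Col16a1 (0.978) and Napa (0.974), and Siglecg to Nip7, Tcim (both 0.986) and Natd1 (0.985).

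For Siglech the rule takes the third probe, which was closest to Myadml2, Upk1b (both 0.993) and Cacna1a (0.992). The other probes, added after these values were seen, led to other genes. The first was closest to Col27a1 (0.997), Anxa3 (0.996) and Hpgd (0.992), and the second to Fscn1, Angptl7 (both 0.994) and Ints6l (0.993).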

How the data were processed

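Resident microglia and invading macrophages of 4 mice were measured on 8 one-colour arrays. Per the file headers, Agilent Feature Extraction 10.7.3.1 subtracted background and detrended each array, and the authors deposited the processed signal as an intensity, not normalized between arrays. They also deposited a table of log2 values of the same arrays, with medians of 4.604 to 4.606, whose normalization is not given in the sources used here.

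Of 62976 spots, 3671 controls and spots that the scanner software marked as outliers were left out, and replicate spots of a probe were averaged. Probes well above background on at least 4 of 8 arrays were tested with lmFit and eBayes of limma 3.58.1 (R 4.3.3, tested on simulated data), without a block. Python 3.11.15 with numpy 2.4.6 and pandas 2.3.3 made the tables. A list gene with several probes was represented by the tested probe of highest mean. Signals under an array's floor were raised to it before a fold was taken. A gene with no array of a group well above background is given as at least a fold.

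The members and the gene and marker lists were chosen with earlier results of these data known. Named were all member probes, the called genes of each pathway list (at most 3 in each direction), the 3 genes most like each member and the brightest gene of each marker list. Any further gene was picked with its values in view. A few genes taken by the rule are not reported here. Of the marker lists, dendritic cell, T cell and neuron markers gave no call among 4, 4 and 2 tested (limma, 1, 0 and 0 at an unadjusted p under 0.05), 1 of 3 natural killer cell (Ncr1) and 1 of 3 oligodendrocyte markers were higher, and 1 of 7 border macrophage markers (Cd163) was lower. The brightest of these lists were Cd209a, Cd4, Snap25, Prf1, Mbp and Stab1, none of them called, and that of the endothelial list was Pecam1, also not called. Names came from RefSeq's GRCm38.p6 gene table (31058 probes), and coordinates are those of the array files. The position of the probes in exons or UTRs was not analysed here.

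Samples are paired by the animal named in the labels. The correlation of both arrays of an animal in their deviations from their group's mean was 0.0422, 0.0983, 0.0697 and -0.0185 for A, B, C and D. For A and D the microglia array was closer to a macrophage array from another animal (0.0658 and 0.0494). The alternatives were the animal, the slide or both as blocks, each slide alone, other scalings, background correction and filters, the deposited table, 1 probe per gene, and leaving out each array. With both blocks, differences rest on animals A, C and D, since only animal B has its arrays on different slides. Normexp background correction was always followed by quantile normalization in place of the percentile, so the 2 changes cannot be told apart.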

Additional observations from a re-analysis of the deposited data

Results flagged for a closer look

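In 20 groups of 4 arrays, for 10 probes in either cell type, 2 arrays lay far from the other 3, where chance gives about 1 group in 20. Siglec1 was at -0.426 on macrophage replicate 2 with A_52_P519960, the gap to the next array being 0.907 of the group's range. Siglece was at 2.395 on macrophage replicate 3, above the other 3 macrophage arrays, with a gap of 0.879 of the range.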

How the results depend on the processing

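Limits: the counts moved with the slide, the animal as a block and single arrays. The probes called numbered 1087 with the replicate block, 843 with slide and replicate block, 90 and 204 on either slide alone (3 arrays, of which 1 is of macrophages, and 5 arrays), and 981 to 4100 when 1 array was left out, the highest without macrophage replicate 2. Siglec probes called were then 2 with the replicate block and 3 with slide and replicate block. They numbered 1 on the slide with 5 arrays and 4 to 8 without 1 array. With 1 probe per gene 3 of 6 tested were called, against 1313 of 19745 of all probes. By that rule the third probe stood for Siglech, and Siglech, Siglece and Cd33 all kept their call. Called probe pairs were 7 with the replicate block, 44 with the slide as a block, 206 with normexp, 35 with the stricter filter, 35 to 116 without 1 array, and 0 with slide and replicate block and on either slide (limma, 1344, 988 and 907 pairs at an unadjusted p under 0.05). The cause was not tested.

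Of the 5 called Siglec probes, all kept their direction in every alternative. The second Siglech probe kept its call in all 21, and the first missed it on the slide with 5 arrays. On the slide with 3 arrays the lone macrophage array is assumed to vary like the others, so calls there add little. With normexp and quantile normalization the first Siglech probe was at -4.22 and its gap to the third at -2.81, and Siglecg was at -0.40. Siglece and the third Siglech probe missed it in 4 of 22 (replicate block, slide and replicate block, either slide) and Cd33 in 9 of 22. Siglec1 ranged from 1.03 to 2.59 and from 0.83 to 2.09. Cd22 changed sign, to 0.041 with the slide as a block, 0.12 with slide and replicate block, 0.58 on the slide with 3 arrays, 0.19 with median centring, and between -0.19 and 0.19 without 1 array. The first and second Siglech probes differed by 0.11 on that slide, by -0.55 to 0.055 without 1 array (above 0 without macrophage replicate 3) and by 1.53 with normexp (adjusted p = 0.0237, limma). The percentile over detected probes and median centring moved the median difference of all probes from 0.00 to -0.16 and 0.20. The replicate block ended 3 Siglec calls and both pair calls of the third Siglech probe, named in the report, and changed no other call of a member. Depth here is signal over background, which limits Siglecg and the first Siglech probe in macrophages.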
